A study of Homo sapiens with 2 samples.

Results

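The genes described here are the 8 ligands and receptors of the PDGF and KIT systems: the receptor genes PDGFRA, PDGFRB and KIT, and the ligand genes PDGFA, PDGFB, PDGFC, PDGFD and KITLG. They were taken by NCBI gene number from tables that together listed 18518 genes, and all 8 were listed in both tables. H1 is an established line of human embryonic stem cells, and the tables hold 1 library from H1 cells of genotype MEIS1-/- and 1 from H1 cells labelled Wild Type. Both cultures were collected at day 3 of a stepwise differentiation towards blood. The first step of 2 days used activin A at 40 ng/ml and BMP4 at 50 ng/ml. The second step, described as 2 days long, used VEGF at 40 ng/ml and bFGF at 50 ng/ml. Counted from the start of the first step, day 3 falls before the end of the second. MEIS1 encodes a homeodomain transcription factor. The labels name no clone, culture or deleted exon, so a library here is a single preparation of a single line, and nothing below has a replicate.

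PDGF receptor alpha and beta and KIT are receptor tyrosine kinases of the same structural class, which pair up when a ligand dimer binds them and then signal through RAS, phosphoinositide 3-kinase and SRC family kinases. PDGF-AA and PDGF-CC act mainly through PDGF receptor alpha, PDGF-BB acts through both PDGF receptors, and PDGF-DD acts mainly through PDGF receptor beta. KITLG encodes stem cell factor, the ligand of KIT. In development PDGFRA marks much of the early mesoderm, PDGFRB marks mesenchyme and the mural cells around vessels that endothelial PDGFB attracts, and KIT marks blood progenitors, mast cells, germ cells and melanocytes.

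The libraries held 5296397 counts (MEIS1-/-) and 5202847 counts (wild type) after rounding, and the 8 genes took 0.0395% of them (MEIS1-/-) and 0.0334% (wild type). MEIS1 itself had 68 counts in the MEIS1-/- library and 89 in the wild-type library, a ratio of 0.759 (95% counting interval 0.543 to 1.05), so its level did not check the labels, and the groups are named as labelled. KDR, an early mesoderm and endothelial gene, stood at 160.44 FPKM in the MEIS1-/- library and 141.46 FPKM in the wild-type library, where FPKM counts reads scaled for gene length and library depth. HAND1, a lateral mesoderm factor, stood at 300.9 FPKM in the MEIS1-/- library and 253.65 FPKM in the wild-type library. PTPRC, the pan-leukocyte gene, had 7 counts in the MEIS1-/- library and 6 in the wild-type library. The embryonic globin gene HBE1 had 2 counts in the MEIS1-/- library and 0 in the wild-type library, so these transcripts of differentiated blood cells were near 0 in both. Ratios below are MEIS1-/- over wild type, from counts scaled by TMM (a correction of library size), and the intervals cover counting error only. A gene is called higher or lower where its interval leaves out a ratio of 1.

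The starts of the 3 members with the largest count totals among those that differed are shown because the deleted factor is a DNA-binding protein and PDGFRA, KIT and KITLG did not move together. Sequences are RefSeq's for assembly GRCh38.p14, each on the gene's own strand and reaching from 250 bases before the annotated start to 50 bases after it. PDGFRA has 2 such windows on chromosome 4, plus strand, at chr4:54229043-54229342 and chr4:54233710-54234009. KIT has 1 on the plus strand at chr4:54657707-54658006, and KITLG has 1 on the minus strand at chr12:88580422-88580721. Capitals mark the letters TGACAG, the core of the motif bound by MEIS-type homeodomains.

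PDGFRA, first window: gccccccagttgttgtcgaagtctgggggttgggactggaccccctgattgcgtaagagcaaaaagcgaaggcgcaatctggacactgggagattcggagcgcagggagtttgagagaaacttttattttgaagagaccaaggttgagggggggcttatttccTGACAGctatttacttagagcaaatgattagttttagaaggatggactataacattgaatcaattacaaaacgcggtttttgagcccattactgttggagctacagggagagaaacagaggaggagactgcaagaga

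PDGFRA, second window: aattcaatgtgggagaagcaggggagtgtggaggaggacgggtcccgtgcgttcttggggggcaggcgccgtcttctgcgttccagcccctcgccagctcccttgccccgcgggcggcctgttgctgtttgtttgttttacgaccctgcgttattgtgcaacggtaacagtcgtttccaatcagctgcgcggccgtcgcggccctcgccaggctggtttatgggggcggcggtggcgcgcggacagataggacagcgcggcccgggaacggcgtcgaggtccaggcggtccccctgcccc

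KIT: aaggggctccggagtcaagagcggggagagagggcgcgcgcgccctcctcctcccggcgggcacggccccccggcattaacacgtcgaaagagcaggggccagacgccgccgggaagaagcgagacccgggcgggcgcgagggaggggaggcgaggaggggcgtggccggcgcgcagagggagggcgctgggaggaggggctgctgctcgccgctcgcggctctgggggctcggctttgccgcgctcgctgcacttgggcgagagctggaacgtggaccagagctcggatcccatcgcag

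KITLG: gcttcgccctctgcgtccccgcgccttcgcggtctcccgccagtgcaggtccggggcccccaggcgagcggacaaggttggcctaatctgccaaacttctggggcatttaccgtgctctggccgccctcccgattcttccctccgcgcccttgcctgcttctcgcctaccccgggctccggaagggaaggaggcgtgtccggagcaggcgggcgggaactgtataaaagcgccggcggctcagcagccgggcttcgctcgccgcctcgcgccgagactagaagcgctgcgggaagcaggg

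The letters TGACAG, searched on both strands, occurred once in the 10 windows that the table holds for 6 of the members, at position 164 of 300 in the first PDGFRA window. Of all 35116 windows of this length in the table, 15.8% held them. The letters AGATAA, a form of the core bound by GATA-family zinc finger factors, were searched the same way. They occurred in 0 of the 10 windows and in 10.3% of all windows. Other forms of that core were not searched or counted. The second PDGFRA window holds AGATAG, and the PDGFRB window holds its reverse complement CTATCT. The 0 is therefore not an absence of GATA-type cores. The PDGFA windows, 4 in number, and those of PDGFRB and PDGFD held neither, and PDGFB and PDGFC were not searched. A match describes these letters only and says nothing of binding.

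Of the 3 receptors, PDGFRA was higher and KIT was lower in the MEIS1-/- library, and PDGFRB had an interval that included 1. PDGFRA, gene 5156 on chromosome 4, encodes PDGF receptor alpha and had 589 counts in the MEIS1-/- library and 425 in the wild-type library. Its levels were 16.78 FPKM (MEIS1-/-) and 12.33 FPKM (wild type), and its count ratio was 1.37 (1.21 to 1.56). The PDGFRA counting intervals, from 15.5 to 18.2 FPKM in the MEIS1-/- library and from 11.2 to 13.6 FPKM in the wild-type library, did not overlap.

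KIT, gene 3815 on chromosome 4, encodes the receptor of stem cell factor and had 115 counts in the MEIS1-/- library and 177 in the wild-type library. Its levels were 4.17 FPKM (MEIS1-/-) and 6.53 FPKM (wild type), and it was 1.55-fold lower (1.22 to 1.98), a log2 ratio of -0.63 (-0.99 to -0.29). This was the only member with a difference past 1.5-fold. In bulk RNA a lower level can come from fewer cells that make the transcript or from less of it per cell, and these cannot be told apart here.

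PDGFRB, gene 5159 on chromosome 5, encodes PDGF receptor beta and had 362 counts in the MEIS1-/- library and 396 in the wild-type library. Its levels were 11.87 FPKM (MEIS1-/-) and 13.22 FPKM (wild type), and its ratio was 0.905 (0.782 to 1.05). At 396 wild-type counts, 459 or more counts in the MEIS1-/- library would have been called higher, a 1.15-fold difference, and 345 or fewer lower. A difference smaller than about that size was not detectable at this depth.

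**Figure D1:**
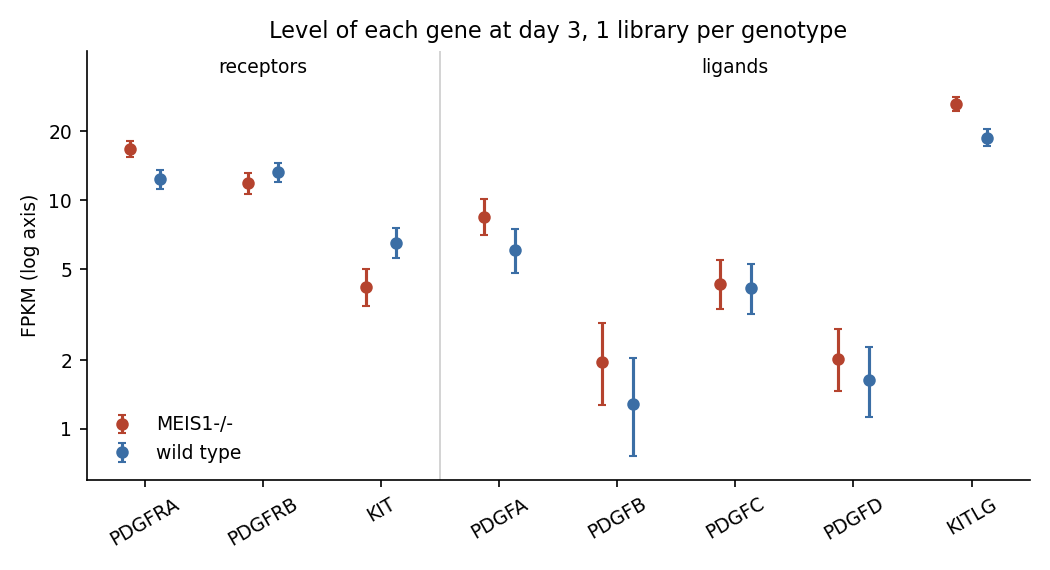
FPKM of the 3 receptors and 5 ligands on a log axis, MEIS1-/- left of wild type for each gene, with points for the single library of each genotype and bars for the exact 95% counting interval. KITLG is the highest in both libraries, at 26.41 FPKM (MEIS1-/-) and 18.74 FPKM (wild type), and KIT is lower in the MEIS1-/- library. The bars of PDGFRB, PDGFA, PDGFB, PDGFC and PDGFD overlap between the libraries. Those of PDGFA overlap (7.04 to 10.1 FPKM in MEIS1-/-, 4.82 to 7.45 FPKM in wild type) although the interval of its count ratio leaves out 1.

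Among the 5 ligands, KITLG and PDGFA were higher in the MEIS1-/- library, and 3 had an interval that included 1. KITLG, gene 4254 on chromosome 12, had 768 counts in the MEIS1-/- library and 536 in the wild-type library. Its levels were 26.41 FPKM (MEIS1-/-) and 18.74 FPKM (wild type), and its ratio was 1.42 (1.27 to 1.59). The ligand of KIT was thus higher in the library in which KIT was lower.

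PDGFA, gene 5154 on chromosome 7, encodes the chain of the PDGF-AA dimer. It had 123 counts in the MEIS1-/- library and 86 in the wild-type library, or 8.47 FPKM (MEIS1-/-) and 6.03 FPKM (wild type). The ratio was 1.41 (1.07 to 1.89). Its interval is wider than that of KITLG because it rests on fewer counts, and its lower end lies near 1.

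PDGFC, gene 56034 on chromosome 4, encodes a ligand that must be cut by a protease before it binds PDGF receptor alpha. It had 69 counts in the MEIS1-/- library and 65 in the wild-type library, or 4.31 FPKM (MEIS1-/-) and 4.13 FPKM (wild type), and a ratio of 1.05 (0.738 to 1.498). PDGFD, gene 80310 on chromosome 11, encodes the other ligand of this protease-activated kind. It had 43 counts in the MEIS1-/- library and 34 in the wild-type library, or 2.03 FPKM (MEIS1-/-) and 1.63 FPKM (wild type), and a ratio of 1.24 (0.780 to 2.02). PDGFB, gene 5155 on chromosome 22, known as the ligand by which endothelium attracts mural cells, was the least abundant member. It had 25 counts in the MEIS1-/- library and 18 in the wild-type library, or 1.97 FPKM (MEIS1-/-) and 1.29 FPKM (wild type), and a ratio of 1.35 (0.720 to 2.67).

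The 3 ligands with few counts could only have shown larger differences. From 18 wild-type counts, PDGFB would have needed 34 counts in the MEIS1-/- library, 1.82-fold more, to be called higher, and 7 or fewer, 2.40-fold less, to be called lower. The matching sizes were 1.56-fold and 1.77-fold for PDGFD and 1.39-fold and 1.48-fold for PDGFC. A ratio such as the 1.41 of PDGFA would therefore not have been called in PDGFB or PDGFD.

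No member's difference reached 2-fold, and the ratios of all 8 members lay inside the middle 90% of all compared genes. Of the 14381 genes that reached 10 counts in either library, 2.9% were higher by at least 2-fold and 2.95% were lower by at least 2-fold, with an interval that left out 1. Of the 8 members, 0 reached this in either direction. At 1.5-fold, 5.75% of all genes were higher and 6.21% were lower, against 0 members and 1 member, KIT. By the interval alone, 15.4% of all genes were higher and 14.7% were lower, against 3 of 8 members (37.5%) and 1 of 8 (12.5%). The KIT ratio lay at percentile 8.15 of all compared genes, and PDGFRA, PDGFA and KITLG lay at percentiles 88.7, 89.7 and 89.9. PDGFB and PDGFD, whose intervals included 1, lay at percentiles 88.0 and 82.5. The median log2 ratio was 0.38 over the 8 members, 0.44 over the 5 ligands and -0.14 over the 3 receptors, beside 0.0033 over all compared genes.

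**Figure D2:**
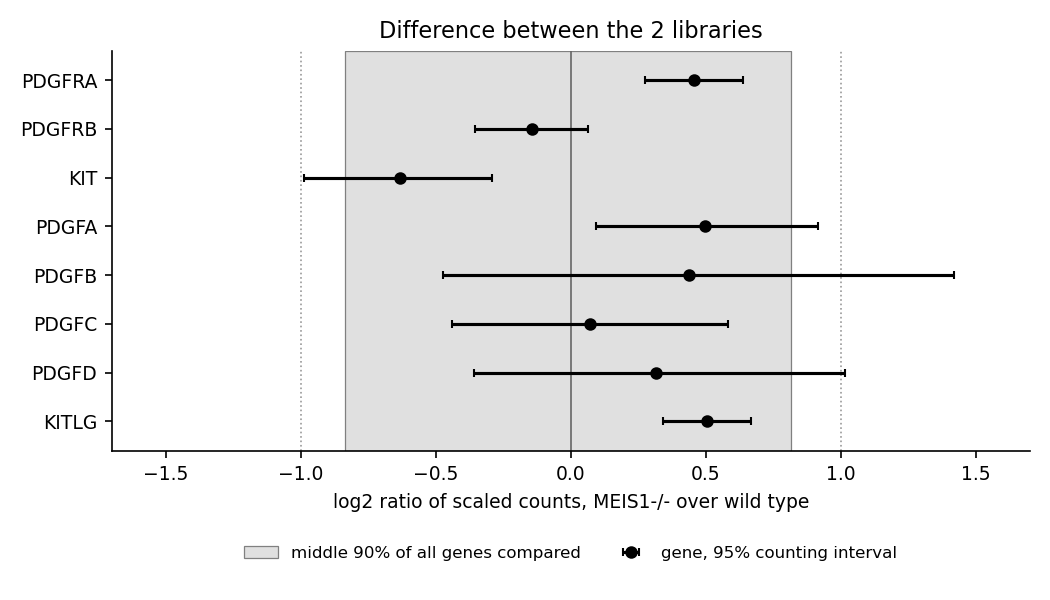
Log2 ratio of scaled counts, MEIS1-/- over wild type, for each member, with exact 95% counting intervals as bars, 2-fold as dotted lines and the middle 90% of all compared genes as a grey band from -0.84 to 0.82. Every point lies inside the grey band, KIT is the lowest at -0.63, and the intervals of PDGFRA, PDGFA and KITLG lie above 0.

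The order of levels, compared per length in FPKM, differed in its middle ranks. In the MEIS1-/- library it ran KITLG, PDGFRA, PDGFRB, PDGFA, PDGFC, KIT, PDGFD and PDGFB. In that library PDGFC and KIT (4.31 and 4.17 FPKM) and PDGFD and PDGFB (2.03 and 1.97 FPKM) were neighbours with overlapping counting intervals. In the wild-type library the order ran KITLG, PDGFRB, PDGFRA, KIT, PDGFA, PDGFC, PDGFD and PDGFB. There PDGFRB and PDGFRA (13.22 and 12.33 FPKM), KIT and PDGFA (6.53 and 6.03 FPKM), PDGFA and PDGFC (6.03 and 4.13 FPKM), and PDGFD and PDGFB (1.63 and 1.29 FPKM) overlapped. PDGFRA and PDGFRB were thus near each other in the wild-type library and apart in the MEIS1-/- library.

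Pairs of members were also compared within each library, which needs no scaling between libraries. PDGFRA stood at 1.41 times the FPKM of PDGFRB in the MEIS1-/- library and at 0.933 times in the wild-type library, and from counts this balance differed by 1.52-fold (exact 95% interval 1.25 to 1.84). KITLG stood at 6.33 times the FPKM of KIT in the MEIS1-/- library and at 2.87 times in the wild-type library, a 2.20-fold difference from counts (1.69 to 2.89). Receptor against receptor, PDGFRA over KIT differed by 2.13-fold (1.62 to 2.81) and PDGFRB over KIT by 1.41-fold (1.06 to 1.87).

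No PDGF ligand compared with a receptor it binds had an interval that left out 1, and whether these pairs differ from KITLG over KIT was not tested. PDGFA over PDGFRA had a ratio of ratios of 1.03 (0.755 to 1.42), and PDGFC over PDGFRA 0.766 (0.525 to 1.12). PDGFB over PDGFRB gave 1.52 (0.781 to 3.01) and PDGFD over PDGFRB gave 1.38 (0.841 to 2.29), and both intervals hold the KITLG over KIT value of 2.20. These were 8 pairs, chosen after the values were seen, and each interval stands alone. Summed over the 4 PDGF ligands, the level was 16.78 FPKM in the MEIS1-/- library and 13.08 FPKM in the wild-type library. PDGFA made up 50.5% of that sum in the MEIS1-/- library and 46.1% in the wild-type library, and PDGFC made up 25.7% (MEIS1-/-) and 31.6% (wild type).

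PDGFRA and KIT are neighbours on chromosome 4, with KDR, the VEGF receptor gene, next in line. The order of protein-coding genes in the RefSeq table is FIP1L1, LNX1, CHIC2, GSX2, PDGFRA, KIT, KDR, SRD5A3, TMEM165 and CLOCK. The 3 adjacent receptor genes differed among themselves, with PDGFRA 1.37-fold higher, KIT 1.55-fold lower and KDR 1.14-fold higher (1.10 to 1.19) on 5184 counts in the MEIS1-/- library and 4489 in the wild-type library. KDR counts were not whole, so some of its reads were shared with other genes.

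The genes flanking the 3 receptors had intervals that included 1. FIP1L1, a factor of mRNA 3-prime end processing, had 395 counts in the MEIS1-/- library and 402 in the wild-type library, a log2 ratio of -0.040. The ubiquitin ligase gene LNX1 had 23 counts in the MEIS1-/- library and 38 in the wild-type library, a log2 ratio of -0.71, and CHIC2 had 41 counts (MEIS1-/-) and 47 (wild type), a log2 ratio of -0.21. Past KDR, SRD5A3 had 96 counts in the MEIS1-/- library and 85 in the wild-type library, a log2 ratio of 0.16. TMEM165 had 364 counts (MEIS1-/-) and 324 (wild type), a log2 ratio of 0.15, and the circadian gene CLOCK had 328 counts (MEIS1-/-) and 307 (wild type), a log2 ratio of 0.080. GSX2, a neural homeobox gene, was listed in neither table and was taken as 0 counts in each, which does not exclude a low level.

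**Figure D3:**
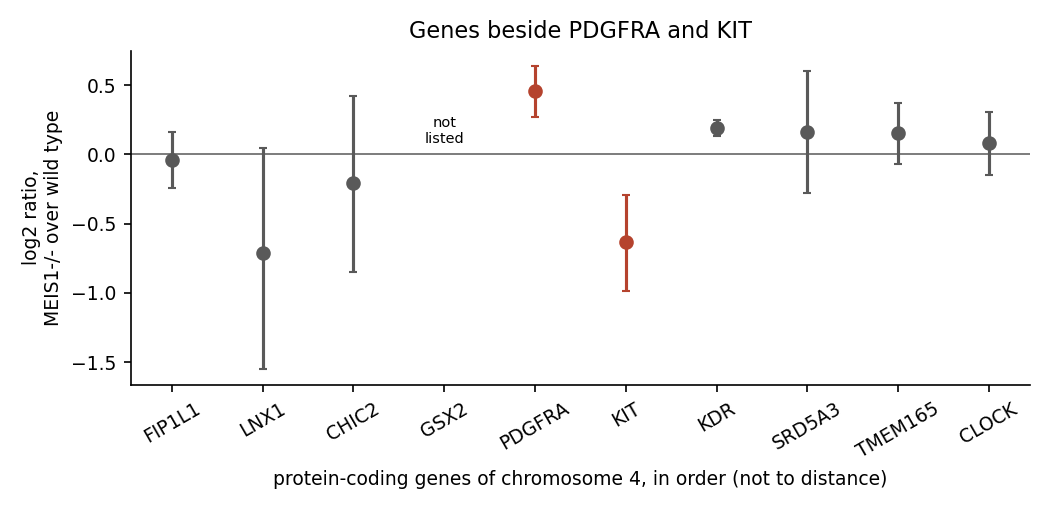
Log2 ratio of scaled counts, MEIS1-/- over wild type, for the protein-coding genes beside PDGFRA and KIT (both in red), in chromosome order and not to distance, with exact 95% counting intervals as bars. PDGFRA lies above 0, its neighbour KIT lies below 0, KDR lies slightly above 0 and the bars of the other listed genes cross 0.

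Genes that act on the PDGF ligands or assist their receptors were split. PLAT, which encodes tissue plasminogen activator, a protease that activates PDGF-CC, had 506 counts in the MEIS1-/- library and 262 in the wild-type library and was 1.91-fold higher (1.64 to 2.23). PLAU, which encodes urokinase, reported to activate PDGF-DD, was 1.38-fold lower (1.10 to 1.74), with 134 counts in the MEIS1-/- library and 183 in the wild-type library. The co-receptor gene NRP1 was 1.19-fold higher (1.08 to 1.32), on 882 counts (MEIS1-/-) and 733 (wild type). LRP1, a large endocytic receptor that binds PDGF receptor beta, had 2382 counts (MEIS1-/-) and 2444 (wild type) and a log2 ratio of -0.052. FURIN, which cuts the PDGF-A and PDGF-B precursors, had 1104 counts (MEIS1-/-) and 1106 (wild type). Of these 5 genes 2 were higher and 1 was lower, with a median log2 ratio of -0.018. By the same rule, 15.4% of all compared genes were higher and 14.7% were lower.

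The sister receptors of the class were nearly silent. CSF1R, the macrophage growth factor receptor gene, had 1 count in the MEIS1-/- library and 6 in the wild-type library, FLT3 had 1 (MEIS1-/-) and 0 (wild type), and the ligand gene FLT3LG had 1 in each. The CSF1R ligand gene IL34 had 45 counts in the MEIS1-/- library and 127 in the wild-type library and was 2.81-fold lower (2.01 to 4.10), with counts that were not whole. CSF1, which encodes the other CSF1R ligand, had 96 counts (MEIS1-/-) and 93 (wild type) and a log2 ratio of 0.031. With 2 of the 5 genes above the minimum, 1 lower and 0 higher, the median of -0.73 rests on IL34 and CSF1 alone.

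Downstream of the receptors, 6 of 29 signalling genes were higher, 7 were lower and 16 had an interval that included 1, with a median log2 ratio of 0.056. Over all compared genes the same rule gave 15.4% higher and 14.7% lower. HRAS, a RAS gene, was 1.58-fold higher (1.18 to 2.16) on 119 counts in the MEIS1-/- library and 74 in the wild-type library. The SRC family kinase genes were split: LYN was 1.36-fold higher (1.22 to 1.52) and FYN 1.33-fold higher (1.16 to 1.53), YES1 was 1.10-fold lower (1.02 to 1.18), and SRC had 919 counts (MEIS1-/-) and 922 (wild type). PIK3R2, a regulatory subunit of phosphoinositide 3-kinase, was 1.38-fold lower (1.20 to 1.60). Of the others named after their values were seen, PIK3R1 was 1.31-fold lower (1.13 to 1.53) and PIK3CB 1.32-fold lower (1.06 to 1.65), while PIK3CA, the fourth listed subunit gene, had 162 counts (MEIS1-/-) and 163 (wild type).

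Markers of the cell types in which these genes are known moved in both directions, and their part in the members' differences was not tested. The list counts from here on use the interval alone, by which 15.4% of all compared genes were higher and 14.7% were lower. Endothelial markers were higher, 6 of 6 compared, with a median log2 ratio of 2.17 and a summed level of 109.8 FPKM in the MEIS1-/- library and 39.43 FPKM in the wild-type library. PLVAP was 6.99-fold higher (5.41 to 9.43), PECAM1 5.35-fold (3.90 to 7.81), TIE1 5.22-fold (3.38 to 9.09) and CDH5 3.87-fold (3.14 to 4.89), and the seventh marker, EMCN, had 7 counts (MEIS1-/-) and 3 (wild type). PDGFB, the endothelial ligand, had a ratio of 1.35 with an upper limit of 2.67, which is below the lower limits of these 4 markers. The other 2 markers compared, named after their values were seen, lay inside the PDGFB interval of 0.720 to 2.67: the angiopoietin receptor gene TEK was 1.68-fold higher (1.51 to 1.88) and ESAM 1.39-fold higher (1.01 to 1.94).

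Mural cell markers, which share PDGFRB, were split. Of 10, 3 were higher, 3 were lower and 4 included 1, with summed levels of 634.2 FPKM in the MEIS1-/- library and 571.07 FPKM in the wild-type library. The pericyte proteoglycan gene CSPG4 was 2.39-fold higher (1.78 to 3.31), the smooth muscle actin gene ACTA2 1.95-fold (1.59 to 2.42) and RGS5 1.46-fold (1.42 to 1.51). NOTCH3 was 1.44-fold lower (1.32 to 1.58), and ABCC9 and TAGLN were lower too. The list median was 0.31, and -0.044 among members with at least 50 counts, so its sign depended on the minimum count.

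Among mesoderm markers, lateral and cardiac genes were mostly higher and paraxial genes were low in both libraries. Of 6 lateral and cardiac genes compared, 4 were higher and 1 was lower, with a median of 0.64 and sums of 395.63 FPKM (MEIS1-/-) and 327.75 FPKM (wild type). HAND2 was 4.14-fold higher (3.18 to 5.61), FOXF1 2.04-fold (1.58 to 2.68) and NKX2-5 2.02-fold (1.44 to 2.93), and ISL1 was 1.32-fold lower (1.10 to 1.59). Of the 7 paraxial genes, 3 (MSGN1, MEOX1 and TCF15) were listed in neither table, 2 of 3 compared were lower, and the sums were 3.57 FPKM in the MEIS1-/- library and 6.86 FPKM in the wild-type library, with a median of -0.93. FOXC1 was 1.91-fold lower (1.19 to 3.25) on 26 counts (MEIS1-/-) and 50 (wild type).

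KIT was lower in the same library as several markers of undifferentiated and germ cells. Some paraxial markers and IL34 were lower there too, and no link with KIT was tested. Of 5 undifferentiated cell markers compared 4 were lower, with a median of -0.41 and sums of 490.86 FPKM in the MEIS1-/- library and 622.41 FPKM in the wild-type library. SOX2, the sixth, had 9 counts (MEIS1-/-) and 4 (wild type), under the minimum for comparison. NANOG was 1.92-fold lower (1.65 to 2.24), POU5F1 1.76-fold (1.59 to 1.95), DPPA4 1.33-fold (1.19 to 1.47) and LIN28A 1.08-fold (1.05 to 1.12). Of 4 germ cell genes compared 2 were lower, TFAP2C by 2.04-fold (1.78 to 2.36) and PRDM1 by 1.72-fold (1.498 to 1.97), while NANOS3 had 35 counts (MEIS1-/-) and 36 (wild type) and DND1 had 75 (MEIS1-/-) and 81 (wild type). Their median was -0.45, their sums were 48.38 FPKM (MEIS1-/-) and 78.87 FPKM (wild type), and the late germ cell genes DAZL and DDX4 were listed in neither table.

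Among markers of blood and mast cells, the other cells known for KIT, SPN stood apart and the others had few or no counts. The mast cell genes TPSAB1 and CPA3 were listed in neither table, HDC had 3 counts in the MEIS1-/- library and 8 in the wild-type library, and GATA1 had 6 (MEIS1-/-) and 0 (wild type). SPN had 118 counts (MEIS1-/-) and 103 (wild type) with an interval that included 1, as did ITGA2B with 18 (MEIS1-/-) and 9 (wild type). These were the only 2 of the 8 genes compared, with a median log2 ratio of 0.55, and the sums were 6.56 FPKM (MEIS1-/-) and 4.64 FPKM (wild type). Endoderm markers were split, with 2 of 6 compared higher and 1 lower, sums of 124.36 FPKM (MEIS1-/-) and 101.61 FPKM (wild type), and a median of 0.14 that turned to -0.17 at a minimum of 50 counts. APOA1 was 2.87-fold higher (2.25 to 3.77), SOX7 1.51-fold higher (1.26 to 1.82) and SOX17 1.63-fold lower (1.41 to 1.90), and FOXA2 had 52 counts (MEIS1-/-) and 72 (wild type) with an interval that included 1.

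**Figure D4:**
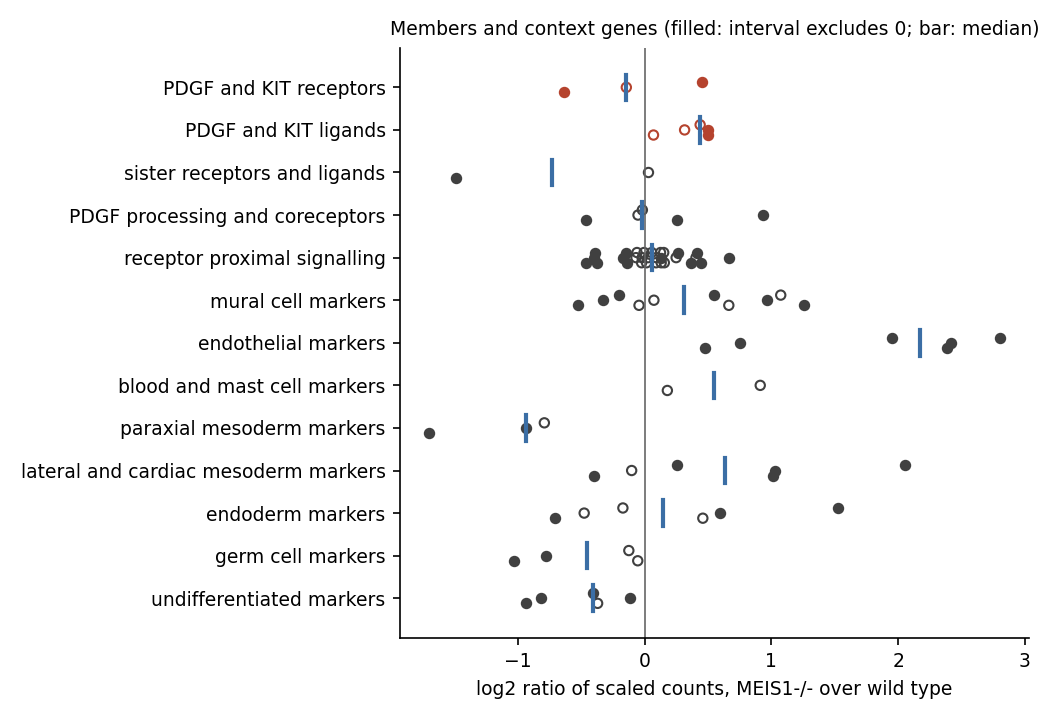
Log2 ratio of scaled counts, MEIS1-/- over wild type, for the members (red) and for genes of the context lists that reached 10 counts in either library, each point a gene, filled where its 95% counting interval leaves out 0, with the list median as a blue bar. The members lie between -0.63 and 0.50, while endothelial markers reach 2.81.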

How the data were processed

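The members and lists were chosen with earlier results of these data known. Each genotype gave 1 RNA library, prepared with an Illumina TruSeq kit (input 2 µg), per the labels' protocols. The authors deposited expected counts (estimated reads per gene, unscaled) and FPKM values (scaled for length and depth), with a listed gene length, per the file headers. BWA, Bowtie, RSEM and the build hg19 are named in the submitters' processing notes, with versions not given in the sources used here. The series' design text names BWA with ANOVA and TopHat with Cufflinks instead, so which steps made these FPKM values and lengths is unclear.

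Absent rows were taken as 0. Of 18518 gene numbers, 18413 matched a symbol in a RefSeq table of GRCh38.p14, used for names, order and promoter windows. Expected counts were rounded and scaled with TMM from edgeR 4.0.16 in R 4.3.3, whose effective sizes differed by a factor of 1.01. A pseudocount of 1 was added to each scaled count for log2 ratios, and folds are their linear form. Intervals are exact 95% Clopper-Pearson intervals conditional on the summed count, without a pseudocount, and pairs of genes used the exact conditional odds ratio (scipy 1.17.1). FPKM intervals are exact Poisson intervals of the count. All these intervals cover counting error only, since each genotype gave 1 library. PCR copies are not independent molecules, so the intervals may be too narrow even for counting error. Without replicates there is no model, test or p-value between genotypes. A gene was compared if it reached 10 counts in either library.

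All 8 members had whole expected counts, within 0.005, in both tables. IL34, KDR, CSPG4, ACTA2, PECAM1, SOX7, SRD5A3, EMCN, YES1, PIK3R1, PIK3R2, ABCC9, POU5F1, NANOG, DPPA4, LIN28A and SPN did not, so they share reads with other genes. In GENCODE release 29, exons of PDGFRA, PDGFD and KITLG overlap another gene, on the opposite strand for PDGFD and KITLG, and the labels do not say whether strand was kept. Named genes are the members, MEIS1, the chromosome 4 neighbours and up to 4 genes per list with the largest ratios among those with at least 50 counts; others named were chosen after their values were seen. The interval computation was tested on simulated data. Alternatives were other scalings, pseudocounts, minimum counts and folds, unrounded counts and FPKM.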

Additional observations from a re-analysis of the deposited data

How the results depend on the processing

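All 64 alternative log2 ratios of the 8 members stayed inside their own counting interval and kept their sign, under DESeq2 size factors, upper-quartile factors, library totals, unrounded counts, pseudocounts of 0.5 and 3, and FPKM with pseudocounts of 1 and 0.1. Several of these settings could hardly move a ratio. Unrounded counts repeated the main values because all 8 members had whole counts, and the TMM effective sizes differed by a factor of only 1.01. The 64 values are therefore not 64 separate checks. KIT ranged from -0.64 to -0.54, PDGFRA from 0.42 to 0.47, KITLG from 0.47 to 0.52, PDGFA from 0.43 to 0.51 and PDGFB from 0.38 to 0.57. The counts of 0 members higher and 0 lower at 2-fold became 0 higher and 1 lower at 1.5-fold and 3 higher and 1 lower by the interval alone, by construction of a looser rule. Added after seeing the data, the interval rule gave 3 higher and 1 lower under the 3 other scalings too. List medians reversed in 2 cases at a minimum of 50 counts, where fewer genes were compared: mural cell markers to -0.044 and endoderm markers to -0.17. A further 10 list medians moved but kept their sign. At 50 counts they were 0.18 (blood), -0.78 (germ cell) and -0.61 (undifferentiated), at 1 count -0.0075 (sister receptors), 1.95 (endothelial) and 0.46 (endoderm), and from FPKM 0.15 (mural), 1.72 (endothelial), 0.27 (blood) and -0.64 (paraxial). Depth limits PDGFB, PDGFC and PDGFD most. No paired analysis was possible because each genotype had 1 library.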

Other observations

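The listed gene length differed between the tables for 3 of the 8 members, all with 2 transcripts listed, and for 31.8% of the 16740 genes listed in both. PDGFB was listed at 2396 bases in the MEIS1-/- table and 2691 bases in the wild-type table, PDGFD at 3979 (MEIS1-/-) and 3997 (wild type), and KITLG at 5452.08 (MEIS1-/-) and 5460 (wild type). FPKM divides by length, and the count ratios carry a pseudocount of 1 that the FPKM ratios here do not. The PDGFB ratio was 1.53 from FPKM and 1.35 from counts, on 25 counts (MEIS1-/-) and 18 (wild type). The KITLG ratio was 1.41 from FPKM and 1.42 from counts. The shares of length, pseudocount and scaling in these gaps were not separated. PDGFRA and PDGFRB had 1 transcript listed, and PDGFA, PDGFC and KIT had the same length in both tables. How the authors weighted lengths over transcripts is not given in the sources used here, and no transcript shares were derived.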
